A study of Mus musculus with 2 samples.

Results

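The genes described here are the heat shock proteins, J-domain proteins and chaperonin subunits measured in cultured embryonic neural stem cells. They were taken by name: every gene whose symbol begins with Hsp, Dnaja, Dnajb or Dnajc, every Cct gene with a number, and Tcp1, without Hspa5, Hsp90b1, Dnajb9 and Hspg2. A gene also needed at least 50 molecules over the cells kept. Of the 19144 genes counted, 76 carried such a symbol and 61 reached that minimum. Dnaja4, with 61 molecules, lay just inside it, and Hspa12a, with 45, just outside. The symbols hold more than cytosolic chaperones, because Hspd1, Hspe1, Hspa9, Dnaja3, Dnajc11, Dnajc15 and Dnajc19 encode mitochondrial proteins and Hspa13, Dnajb11, Dnajc1, Dnajc3 and Dnajc10 encode proteins of the endoplasmic reticulum.

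Transcripts were counted by Drop-seq, which captures single cells (or nuclei, since the sources name both) with barcoded beads in droplets and tags every RNA molecule it copies with its own identifier, so that a UMI count is a count of molecules. The cells came from primary neurospheres, free-floating clusters that grew for 7 to 10 days out of tissue lining the lateral ventricles of CD1 mouse embryos. They were cultured with leukemia inhibitory factor (LIF) at 10 ng/mL and a supplement that the protocol abbreviates EFH without explanation. The labels give 2 samples of this single group, but the deposited table does not tie its 4000 barcodes to either of them, so it was handled as 1 sample and no test between samples was possible. No untreated, unheated or low-oxygen culture is part of the design. The 3765 cells kept held 17395968 UMIs, with a median of 3869 per cell (range 638 to 54060). All 12 radial glia markers reached the 50-UMI minimum and summed to 14103 CPM (UMIs per 1000000 counted), against 87.9 for immature neuron, 489 for astrocyte, 40.5 for oligodendrocyte lineage, 11.6 for mural and 0.747 for microglia markers.

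Chaperones bind unfolded or partly folded proteins and help them reach or keep their shape. HSP70 proteins work with J-domain partners that deliver clients, HSP90 matures kinases and receptors, and the ring-shaped TRiC complex folds actin and tubulin in the cytosol, while Hspd1 and Hspe1 form the corresponding chamber in mitochondria. Part of the family is induced by heat through the factor HSF1, which binds repeats of nGAAn units, and part is made constitutively, in particular in growing cells.

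To show which members carry heat shock repeats beside their start sites, the 250 bases upstream of each RefSeq start were searched in a table of build GRCm38.p6, which held 49 of the 61 members. The motifs were TTCNNGAA and GAANNTTC, which read the same on both strands and can overlap each other. At least one occurred in 12 of the 49 members (24.5%) and in 14.6% of all 27025 genes in the table. A run of 3 adjoining units (TTC, 2 free bases, GAA, 2 free bases and TTC, or the same with GAA and TTC exchanged) occurred in 3 members (6.12%), namely Hspd1, Hspe1 and Dnajb6, and in 0.514% of all genes. Hspd1 and Hspe1 are read in opposite directions from start sites 215 bases apart and share one stretch in which such runs overlap. The lines below give, with the units in capitals, 30 bases around this stretch, the matches of Hsph1 and Dnajb6, and the whole window of Hspa1a, the classic heat-inducible HSP70 gene. The first 3 of these sites also fall within 5′ untranslated exons of some GENCODE transcripts, which start further upstream.
Hspd1 and Hspe1, chr1:55088053-55088082, plus strand: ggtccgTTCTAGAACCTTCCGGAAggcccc
Hsph1, chr5:149636351-149636380, minus strand: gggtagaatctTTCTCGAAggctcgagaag
Dnajb6, chr5:29735844-29735873, plus strand: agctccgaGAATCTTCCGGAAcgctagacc
Hspa1a, chr17:34972157-34972406, minus strand: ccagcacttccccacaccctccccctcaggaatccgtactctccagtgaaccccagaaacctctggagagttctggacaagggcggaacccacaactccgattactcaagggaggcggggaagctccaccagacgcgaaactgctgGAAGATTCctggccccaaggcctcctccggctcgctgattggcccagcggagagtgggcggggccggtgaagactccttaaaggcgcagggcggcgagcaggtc
A match describes the letters of the reference (C57BL/6J, not CD1) and is not evidence of binding.

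The 61 genes together gave 252390 UMIs, or 14509 CPM with a 95% Poisson counting interval of 14452 to 14565. A single gene, Hsp90ab1 (chr17:45567775-45573271, minus strand), which encodes the constitutive cytosolic HSP90, supplied 29.7% of them. Its level was 4307 CPM, it ranked 11th of all genes, and it was detected in 99.2% of cells. Its heat-inducible partner Hsp90aa1 reached 401 CPM. Because the method counts each molecule once near its 3′ end, these levels are per molecule and were not divided by gene length.

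The 8 TRiC subunits measured were the next largest group, at 3617 CPM, and lay close together. Cct2 was highest at 576 CPM and Tcp1 lowest at 382. Cct6b, whose product replaces Cct6a in testis, had 19 UMIs. The mitochondrial pair summed to 1496 CPM, with Hspd1 (chr1:55077835-55088243, minus strand), the chamber subunit, at 807 and Hspe1 (chr1:55088132-55091307, plus strand), its lid, at 689. Their counting intervals do not overlap.

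Among the HSP70 and HSP110 genes, Hspa9, the HSP70 of mitochondria, was at 472 CPM and Hspa4, an HSP110-type exchange factor (chr11:53259814-53300457, minus strand), at 466. These neighbours in rank did not differ beyond their counting intervals. Hspa14, an HSP70 associated with ribosomes, stood at 119 CPM and Hsph1, the heat-inducible HSP110, at 118. Hspa8, the constitutive HSP70 of the cytosol, had only 285 UMIs (16.4 CPM, 6.91% of cells). Its last 400 transcript bases have 7 near-identical copies among other annotated genes (at least 95% identity over 200 bases), so reads may have been lost or split and this level is uncertain. Hspe1 and Dnajc17 each have 1 such copy, and the other 57 of the 60 members searched have none.

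Of the genes listed as heat-inducible, Hspa1a, Hspa1b and Hspb1 were close to absent. Hspa1a had 14 UMIs in 13 cells, Hspa1b 4 and Hspb1, the small heat shock protein also called HSP27, 7. Hspa1l, an HSP70 gene outside that list, had 3. Dnajb1, the inducible J-domain partner of HSP70, had 860 UMIs (49.4 CPM). Free RNA in droplets can give such scattered single molecules, so the counts of the first 4 genes are not read as expression.

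The 37 J-domain genes ranged from 3.51 CPM (Dnaja4) to 373 (Dnajc9, a histone chaperone, chr14:20384638-20388910, minus strand). Dnaja1 and Dnaja2, general HSP70 partners, were at 320 and 304 CPM, Dnajc8, linked to splicing, at 314, and Dnajc2, which acts on ribosomes, at 216. The 24 DNAJC genes summed to 2145 CPM, the 4 DNAJA genes to 693 and the 9 DNAJB genes to 355. Only 2 of the 8 small heat shock protein symbols reached the minimum, Hspb11 at 77.3 CPM and Hspb6 at 11.2, and Hspb11 (chr4:107253593-107279938, plus strand) is better known as Ift25, a subunit of the ciliary transport machinery. In all, 25 members lay at 100 CPM or more, 29 between 10 and 100, and 7 below 10, with a median of 74.5 CPM against 29.3 for the 11057 genes that had at least 50 UMIs.

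**Figure D1:**
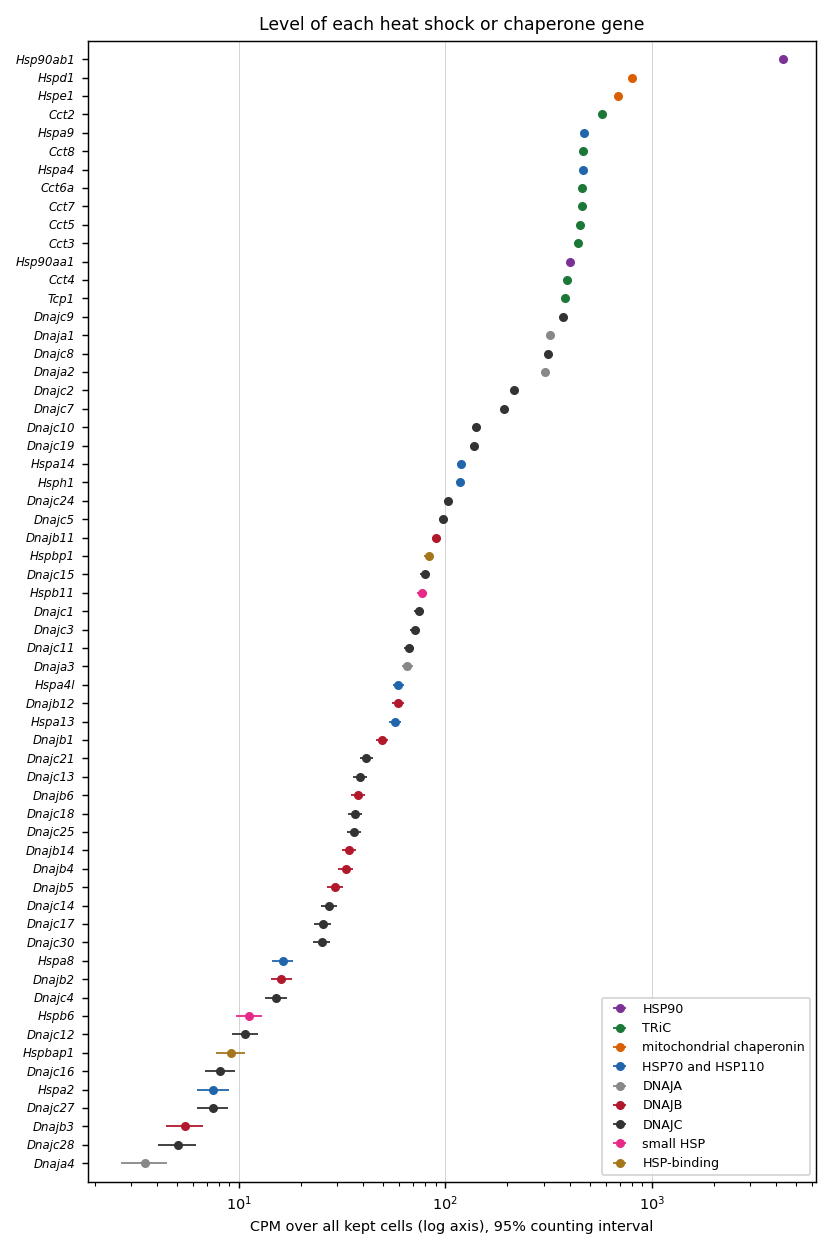
Level of each of the 61 genes over all 3765 kept cells, in CPM on a log axis, coloured by role, with 95% Poisson counting intervals. Hsp90ab1 stands alone at 4307 CPM, the mitochondrial pair and the 8 TRiC subunits lie between 382 and 807, and the J-domain genes reach from 3.51 to 373.

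For most members the spread from cell to cell lay close to that of counting error. After each cell was thinned to 1000 UMIs (3576 cells, with 189 shallower cells left out), the variance divided by the mean, which is 1 for counting error alone, had a median of 1.05 over the 36 members with at least 1000 UMIs. The median over all 3424 genes with that many UMIs was 1.06 and their 95th percentile 1.22, and 17 of the 36 members lay above the median. Hsp90ab1 reached 1.24, the scarce testis-type HSP70 gene Hspa2 1.26, Dnajb4 1.20 and Dnajc9 1.14. Hsp90ab1 averaged 4.33 UMIs per thinned cell, but Hspd1, the next member, only 0.773. At such low means the measure can lie near 1 even where levels vary. It therefore does not show that variation was small, and it does not rank members of unlike abundance.

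Cells were then set apart by the share of their UMIs in lists of textbook target genes that hold no member, which gives ranges of a score and not cell types. HIF-high cells had at least 4 UMIs of 27 targets of the hypoxia-inducible factor and at least 4 times the pooled share. There were 137 such cells (3.64%), of which 37 lay within 4 to 5 times the pooled share, and 59 further cells lay at 3 to 4 times. Hypoxia was not imposed or measured, so the name refers to these transcripts alone. The rule fixes their HIF list level, 10018 CPM; glycolysis genes, which it did not use, stood at 11257 CPM against 3606 in the other cells.

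In HIF-high cells the 61 genes summed to 12334 CPM (11999 to 12676), compared with 14562 (14505 to 14619) in all other cells, a ratio of 0.847 (0.824 to 0.871 by an exact conditional binomial interval). Without Hsp90ab1 the ratio was 0.748 (0.722 to 0.775). A gene was called where its CPM ratio was at least 1.5, or at most its inverse, and its whole counting interval lay on that side of 1. By this rule 12 members were lower and 8 higher, while 7.62% of the 11057 genes were lower and 10.4% higher. Among abundant genes, lower calls were more frequent and higher calls less frequent. Of the 36 members with at least 1000 UMIs, 11 were lower and 3 higher, beside 16.3% and 6.75% of the 3424 genes of that abundance. The median ratio was 0.745 over these 36 members and 0.906 over the 3424 genes. These intervals cover counting error in 1 pooled table only.

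Hspd1 and Hspa4 were the 2 members lower by more than 1.5-fold over their whole interval. Hspd1 stood at 432 CPM in HIF-high and 816 in other cells, a ratio of 0.529 (0.454 to 0.613). Its level in the other classes described below was 720 in non-HIF-high cells with few cell cycle transcripts, 828 in integrated stress response cells, 626 in immediate early cells, 912 in S-phase cells and 826 in G2/M cells, so the HIF-high cells were the lowest of all. Hspe1 was at 461 CPM against 694, a ratio of 0.664 (0.572 to 0.765), and Hspa9, which draws proteins into the same compartment, at 302 against 476, a ratio of 0.635 (0.528 to 0.757). Hspa4 was at 252 CPM against 472, a ratio of 0.534 (0.437 to 0.648), and it too was lowest in the HIF-high cells, with 412, 430, 359, 506 and 497 CPM in the other classes in the same order.

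All 8 TRiC subunits had ratios below 1, from 0.611 (Cct8, 288 against 472 CPM) to 0.776 (Cct4, 302 against 390), and none of their counting intervals reached 1. Cct8 and Cct6a (0.621) were called. Summed, the complex was at 2551 CPM against 3643, a ratio of 0.700 (0.658 to 0.744). The ratios of the subunits lay in a narrow range, and 6 of the 8 did not reach the 1.5-fold limit.

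The remaining lower members were spread over other roles. Hsph1 stood at 72.0 CPM against 119, a ratio of 0.606 (0.408 to 0.868). Hspbp1, an exchange factor for HSP70, had a ratio of 0.514 (0.304 to 0.815), Dnaja2 0.650, the ribosome-bound Dnajc2 0.616 and Dnajc10, a disulfide reductase of the endoplasmic reticulum, 0.639. Dnajc25 had a ratio of 0.392, from only 6 UMIs in HIF-high cells.

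Neither HSP90 gene was called. Hsp90ab1 was at 4654 CPM in HIF-high cells and 4298 in the others, a ratio of 1.08 (1.03 to 1.13), and Hsp90aa1 at 336 against 403, a ratio of 0.834 (0.701 to 0.986).

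Among the higher members, Hspb11 had 151 CPM against 75.5, a ratio of 2.0 (1.53 to 2.58), and was the only one whose whole interval lay beyond 1.5. Dnajc5, the cysteine string protein that serves vesicle fusion at synapses, was at 182 CPM against 95.5, a ratio of 1.91 (1.497 to 2.40). Hspa4l, an HSP110-type relative of Hspa4, was at 101 CPM against 58.1, a ratio of 1.74 (1.24 to 2.36), in the opposite direction to Hspa4. Dnajb4 (1.63), Dnajc18 (1.60), Dnajc4 (2.11), Hspb6 (2.44) and Dnajc16 (2.45) rest on 22, 24, 13, 11 and 8 UMIs in HIF-high cells.

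**Figure D2:**
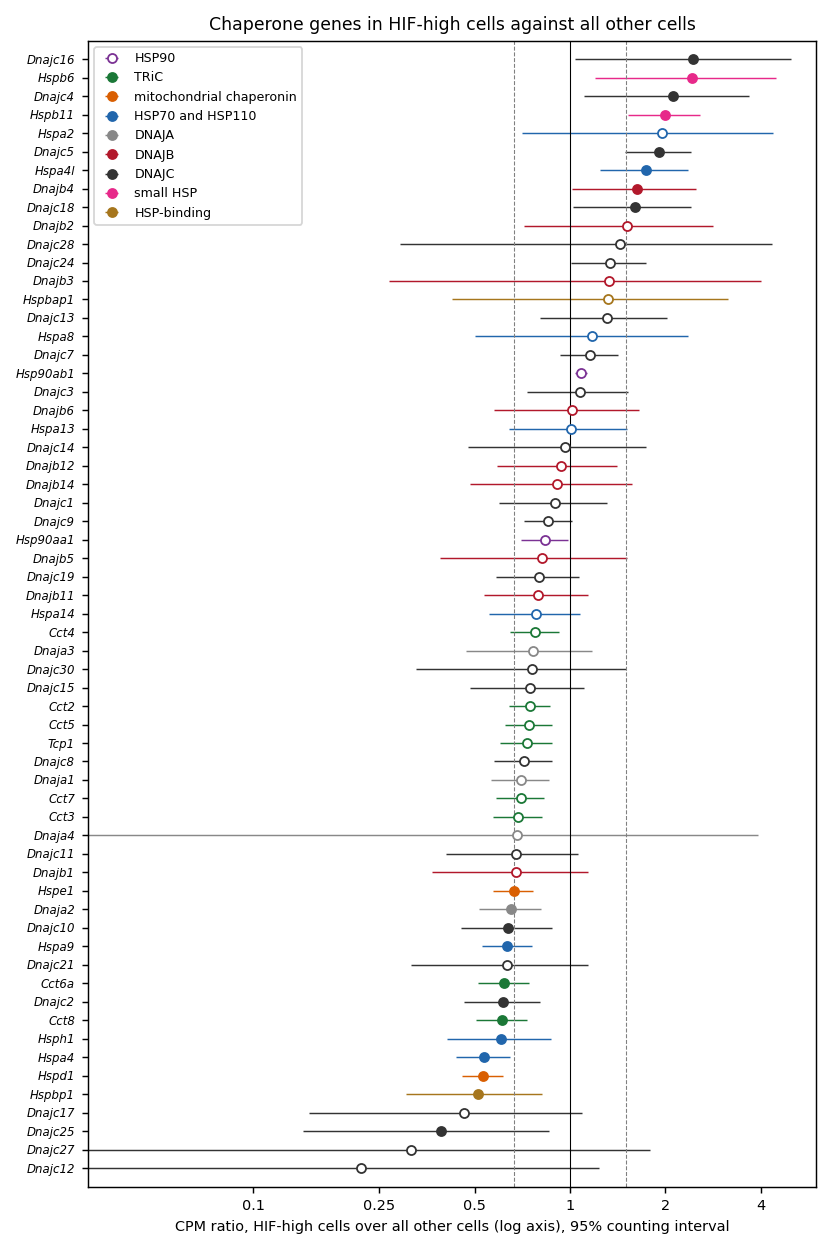
CPM ratio of HIF-high cells to all other cells for each of the 61 genes, on a log axis with 95% counting intervals; filled points are called by the 1.5-fold rule, dashed lines mark that fold, and the intervals of Dnaja4, Dnajc12 and Dnajc27 run past the left edge. The 8 TRiC subunits and the mitochondrial pair lie left of 1 (0.529 to 0.776), Hsp90ab1 sits at 1.08, and Hspb11 and Dnajc5 lie near 2.

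Other properties of the HIF-high cells moved with these differences. They were shallower (median 2665 UMIs against 3936), and 81 of the 137 had few cell cycle transcripts; the S-phase list summed to 1435 CPM against 2714 and the G2/M list to 4342 against 4951. Astrocyte markers, of which 5 of 8 reached 50 UMIs and Gjb6 had none, summed to 1687 CPM against 459, radial glia markers to 12999 against 14130 and immature neuron markers to 151 against 86.3. The part of depth and astrocyte-marker RNA in the lower chaperone levels was not tested.

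HIF-high cells were also set against cells with few cell cycle transcripts. Against the 1406 cells with few S and G2/M transcripts (at most 0.5 times the pooled share) that were not HIF-high, the sum of the 61 genes had a ratio of 0.892 (0.867 to 0.918). By the same rule 7 members were lower and 6 higher, beside 6.08% and 10.7% of all genes; among the 36 abundant members 5 were lower and 4 higher, beside 12.2% and 8.76% of genes of that abundance. Hspd1 had a ratio of 0.600 (0.514 to 0.696), Hspa4 0.612, Cct8 0.612, Hsph1 0.640 and Hspbp1 0.570, and the TRiC sum 0.741 (0.696 to 0.788). Dnajc25 (0.404) and Dnajc12 (0.156) rest on 6 and 1 UMIs. Hspb11 (1.60), Dnajc5 (1.89), Hspa4l (2.25), Dnajc4 (2.51) and Hspb6 (2.73) were higher, and so was the replication-linked Dnajc9 (1.76, 319 against 182 CPM). This comparison shares its HIF-high cells with the preceding one and was not matched for the cell cycle, because only 81 of the 137 HIF-high cells were themselves low in cycle transcripts: the G2/M list stood at 4342 CPM in them against 579, and the S list at 1435 against 869.

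With both sides restricted to cells with few cycle transcripts (81 HIF-high against 1406 other cells), the G2/M list was at 581 CPM against 579 and the S list at 565 against 869. In this comparison, added after seeing the data, Hspd1 was at 374 CPM against 720, a ratio of 0.519 (0.416 to 0.639), and Hspa4 at 216 against 412, a ratio of 0.524 (0.390 to 0.690). The TRiC sum had a ratio of 0.662 (0.607 to 0.721) and the sum of the 61 genes 0.864 (0.832 to 0.897). Hspb11 (2.02, 1.46 to 2.73), Dnajc5 (1.93, 1.39 to 2.62) and Hspa4l (2.32, 1.47 to 3.50) remained higher, while Dnajc9 was at 195 CPM against 182 (1.07, 0.785 to 1.44) and was not called. Hsph1 (0.776, 0.477 to 1.20) and Hspbp1 (0.548, 0.261 to 1.02) were not called either. Astrocyte markers stood at 2293 CPM against 547 here, and their part was not tested.

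Graded by the HIF share, levels lower than in cells below the pooled share were already seen under the limit of 4 times. Among the 3055 cells with at least 2000 UMIs, Hspd1 was at 811 CPM in the 86 cells without a HIF-target UMI, 852 in cells below the pooled share, 757 at 1 to 2 times it, 620 at 2 to 4 times, and 439 in the 92 cells at 4 times or more. Over the same steps the TRiC sum was 3459, 3719, 3546, 3234 and 2575 CPM, and Hspa4 403, 489, 446, 379 and 268 CPM. Compared with cells without a HIF-target UMI, only Hspd1 was lower at 2 to 4 times beyond its counting interval (558 to 687 against 707 to 925). The intervals of the TRiC sum (3089.5 to 3383 and 3242 to 3687) and of Hspa4 (331 to 433 and 332 to 486) overlapped. Hspb11 was at 99.0, 76.2, 71.4, 80.3 and 166 CPM, so its higher level appeared at the last step. Hsp90ab1 was at 4461, 4292, 4290, 4481 and 4742 CPM. The S and G2/M lists summed to 6295, 8347, 6070, 7068 and 5949 CPM over these steps. Like Hspd1 and the TRiC sum, they were highest below the pooled share and lowest at 4 times or more, and their part in the gradient was not tested.

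**Figure D3:**
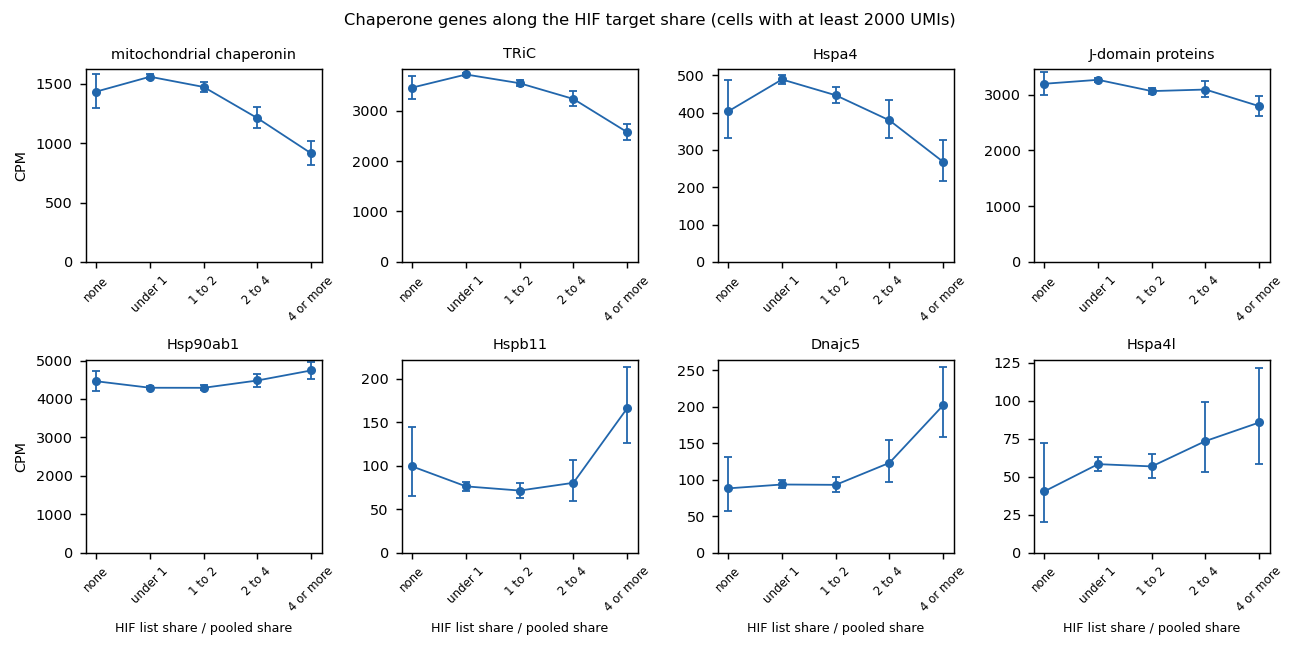
Levels in CPM with 95% Poisson intervals across 5 steps of the share of HIF-target UMIs, in 3055 cells with at least 2000 UMIs. From cells below the pooled share to those at 4 times or more, the sum of Hspd1 and Hspe1 goes from 1560 to 915. The TRiC sum goes from 3719 to 2575, while Hsp90ab1 goes from 4292 to 4742.

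Transcripts of partner proteins were read from lists in the same way. Of 26 genes for HSF factors and HSP70 or HSP90 co-chaperones, 5 were lower in HIF-high cells and none was higher. That is 19.2% lower, beside 7.62% of all genes and 16.3% of those with at least 1000 UMIs, and their median ratio was 0.786, beside 0.980 and 0.906. Stip1, which bridges HSP70 and HSP90, was at 185 CPM against 357, a ratio of 0.517 (0.408 to 0.648). Ahsa1, which stimulates the HSP90 ATPase, had a ratio of 0.491, Chordc1 0.420, the immunophilin Ppid 0.530 and Tomm34 0.395. Of 9 measured prefoldin and chaperonin helpers 1 (11.1%) was lower, the prefoldin subunit Pfdn4 (0.530). Of 13 folding genes of the endoplasmic reticulum 1 (7.69%) was lower, Creld2 (0.651), none was higher, and their sum had a ratio of 1.08 (1.03 to 1.13). These last shares lie near those of all genes.

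The other stress classes gave few differences. In the 189 ISR-high cells, which had at least 3 times the pooled share of ATF4 and CHOP targets, Hspa9 was the only member called higher, where 2.90% of all genes were. It stood at 948 CPM against 448 in other cells, a ratio of 2.12 (1.97 to 2.28), while Hspd1 (1.03) and Hspe1 (1.12) were not called. Dnajc18 (0.635) and Hspa8 (0.419, from 6 UMIs) were lower, where 3.64% of all genes were. Among the 36 abundant members 1 was higher and 0 lower, beside 1.37% and 2.57% of genes of that abundance. The sum of the members had a ratio of 1.07 (1.05 to 1.09), but the median ratio over the 61 members was 0.994 and 31 of them lay below 1. None of the 26 co-chaperone or 13 endoplasmic reticulum genes was called.

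The 175 cells with at least 3 times the pooled share of immediate early transcripts, such as Fos and Jun, had 3 members past the limit, 2 higher and 1 lower. The members summed to 13225 CPM against 14546, a ratio of 0.909 (0.887 to 0.932). Below 1 without reaching the 1.5-fold limit were also the sums of TRiC (0.837, 0.795 to 0.881, with all 8 subunits below 1), of the mitochondrial pair (0.784, 0.721 to 0.851) and of the HSP70 and HSP110 genes (0.832, 0.763 to 0.906). The HIF-high class was therefore not the only one with lower sums of these groups. The classes overlapped, however, as 13 of the 175 cells were also HIF-high. The HIF list stood at 2057 CPM in the 175 cells against 1372 in all others, and its part in these sums was not tested. Dnajb6, a suppressor of protein aggregation whose promoter window is printed above in part, was at 62.2 CPM against 37.2, a ratio of 1.67 (1.13 to 2.40). Dnajb4 was at 56.2 against 32.2, a ratio of 1.75 (1.15 to 2.55), and Dnajc3, an inhibitor of the kinase PERK, was lower (0.638). Of all genes, 4.40% were higher and 2.93% lower; among the 36 abundant members 0 were higher and 1 lower, beside 2.37% and 4.50%. The heat-inducible Dnajb1 (0.684, 0.396 to 1.10) and Hsph1 (1.04, 0.794 to 1.34) were not called, and Cryab, a small heat shock protein on the co-chaperone list, was at 34.1 CPM against 12.1, a ratio of 2.83 (1.61 to 4.64).

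Among the cell cycle classes, Dnajc9 had the highest ratios of any member. Its level was 573 CPM in 502 S-high cells, 466 in 564 G2M-high cells and 182 in 1487 low-cycle cells, giving ratios of 3.15 (2.90 to 3.41) and 2.56 (2.37 to 2.76). Both ratios use the same low-cycle cells. Hspa14 was at 155 CPM in each cycling class and 74.7 in low-cycle cells, a ratio of 2.07 in both. Dnajb1 was higher in both as well (1.54 and 1.76), as was Dnajc21 (1.88 and 1.56), which acts in the maturation of the large ribosomal subunit.

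In all, 5 members were higher and 6 lower in S-high cells, beside 9.87% and 9.02% of all genes, and 7 were higher and 5 lower in G2M-high cells, beside 9.11% and 12.9%. Among the 36 abundant members, 2 were higher and 0 lower in S-high cells, beside 10.2% and 3.36% of genes of that abundance, and 3 were higher and 1 lower in G2M-high cells, beside 9.70% and 5.72%. Hspa8 (1.75) completed the higher members in S-high cells, and Hspa4l (1.74), Hspb6 (1.89) and Hspa2 (1.95) those in G2M-high cells. The lower members in S-high cells were Dnajc18, Dnajb4, Dnajc30, Dnajb2, Hspb6 and Dnajc28, with ratios from 0.449 to 0.658, and in G2M-high cells Hspb11, Dnajc30, Dnajc12, Hspbap1 and Dnajc28, from 0.342 to 0.609. Hspd1, Hspa4 and the TRiC sum were above their low-cycle levels in S-high cells, at ratios of 1.29, 1.25 and 1.11, without passing the 1.5-fold limit. Hsp90ab1 was slightly below it in both, at 0.931 and 0.903.

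**Figure D4:**
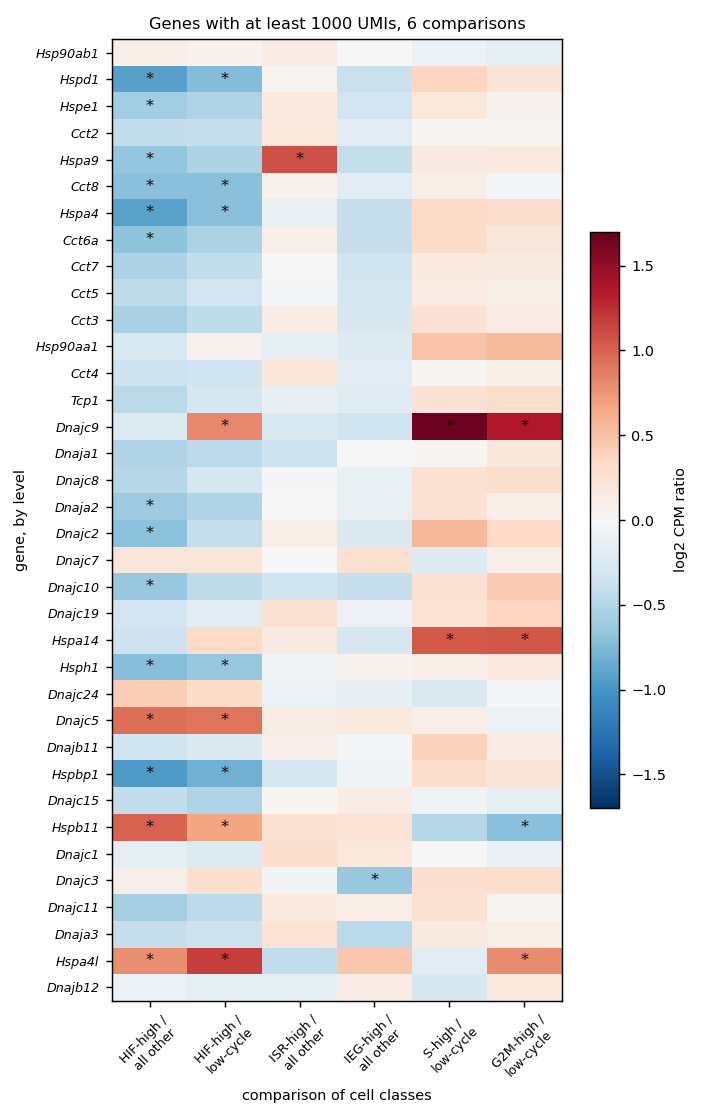
Log2 CPM ratios of the 36 members with at least 1000 UMIs in 6 comparisons of cell classes, with red higher and blue lower; an asterisk marks genes called by the 1.5-fold rule. Blue dominates both HIF-high columns, Hspa9 alone is marked in the ISR-high column, and Dnajc9 and Hspa14 are marked in both cycling columns.

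Co-variation between members across single cells was weak. In the 3055 cells with at least 2000 UMIs, after removal of the part linear in log depth, the median Pearson correlation over the 630 pairs of 36 members was 0.0107, against 0.000296 over all pairs of the 3424 genes. For the 18 members with at least 5000 UMIs it was 0.0412, against 0.00656 for 631 genes, and for the 8 TRiC subunits 0.0444. Only 9 member pairs (1.43%) exceeded 0.1, as did 0.440% of all pairs. These shares were not matched for abundance, because 18 of the 36 members but only 631 of the 3424 genes had at least 5000 UMIs. The highest member pairs were Hspd1 with Hspe1 (0.165), Hspd1 with Cct6a (0.154), Hsp90ab1 with Hspd1 (0.122) and Hspd1 with Hspa4 (0.120), and Dnajc9 with Hspa14 had 0.103. The cells share one table and their depth, and values this low in sparse counts describe the data without establishing a relation.

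Cells thinned to 1000 UMIs were also grouped by their Hspd1 molecules. With 0, 1, 2 and 3 or more Hspd1 UMIs (1710, 1213, 465 and 188 cells), the TRiC sum was 3387, 3548, 3617 and 3787 CPM and Hspa4 405, 474, 518 and 521 CPM. Hspe1 was at 615, 701, 753 and 670 CPM and Hspa9 at 422, 493, 480 and 580 CPM, so neither followed the steps throughout. The S and G2/M lists summed to 6316, 6860, 7286 and 7128 CPM. The HIF-high cells among them numbered 83, 34, 4 and 1. The summed counts of 9 members listed as heat-responsive (Hspa8, Hsp90aa1, Hsph1, Hspe1, Hspd1, Dnaja1, Dnajb1, Dnajb4 and Hspa4l) were also correlated with other genes. Hspd1 and Hspe1 supplied 60.0% of these counts and Hspa8 is largely constitutive, so the sum is no measure of a heat shock response. Outside all gene lists, the genes with the highest correlations with it over the 3055 cells were Serbp1 (0.244), Ncl (0.239), Ranbp1 (0.208), C1qbp (0.185), Ran (0.180), Anp32b (0.180), Tuba1b (0.169), Cacybp (0.166), Cnbp (0.164) and Banf1 (0.162).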

How the data were processed

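The authors deposited unnormalized UMI counts, with genes in rows and barcodes in columns. Per the submitters' processing notes, the build was mm10; an aligner, a counting program and an annotation are not given in the sources used. Barcodes with 500 or more genes and no more than 10% of UMIs from mitochondrial genes were kept as cells, and no doublets were removed. Counts were summed over cells and scaled to CPM. Since barcodes could not be assigned to the 2 samples, no test was run; intervals (95%, Poisson or conditional binomial) cover counting error only. Any member, any gene of the lists, and the 10 other genes most correlated with the heat-inducible group could be named. The members and lists were chosen with earlier results of these data known. Tcp1 was read as that gene alone. Gene positions are from GENCODE M21 (GRCm38), which held all 61 members. Near-identical copies were searched with BLAST+ 2.17.0. Statistics used scipy 1.17.1 and pandas 2.3.3 under Python 3.11.15, and figures matplotlib 3.10.9. The calling rule was tried on simulated Poisson counts, the model that the intervals assume. These held no variation between cells, so the trial does not check the calls against it. Alternatives changed the cell and gene filters, weighting, depth, class limits and calling rule, and replaced HIF-high cells by a Leiden cluster.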

Additional observations from a re-analysis of the deposited data

How the results depend on the processing

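No paired analysis was possible because the table's columns carry no sample and the labels give a single group. In comparisons of HIF-high with all other cells, Hspd1 (0.404 to 0.611), Hspa4 (0.457 to 0.621) and Hspb11 (1.57 to 2.53) kept their calls in all 15 alternatives, and Hsp90ab1 (1.04 to 1.14) was called in none. Hspa9 in ISR-high cells (1.84 to 2.41) and Dnajc9 and Hspa14 in both cycling classes kept theirs in all 12. Other HIF-high calls against all other cells were less stable. Of the 15 alternatives, Hspe1 lost its call in 8 (0.645 to 0.7605), Hspa9 in 6 (0.575 to 0.811) and Hsph1 in 6 (0.5215 to 0.899). Dnaja2 lost its call in 5 (0.443 to 0.711) and Hspa4l in 3 (1.04 to 2.45). Alternatives that changed only the UMI minimum per gene left every single-gene ratio as it was. Calls were kept under them by construction, here and in the counts that follow. Over all comparisons, for the called genes followed through the alternatives, 576 values kept their call, 191 lost it and 4 changed direction: Dnajb4 in HIF-high cells (0.921) and Hspb6 in S-high cells (1.05) at 1000 UMIs per cell, and Dnajc18 in ISR-high (1.24) and Dnajc3 in immediate early cells (1.04) at class limits 1.5 times as low. The calls of Dnajc30, Dnajb2, Dnajc28 and Hspbap1 in the cycling classes were not followed and are not in these counts. Where a Leiden cluster of 254 cells (94 of them HIF-high) stood for the hypoxic cells, higher members numbered 4 against all other cells, and 3 higher and 4 lower were counted against low-cycle cells. Against low-cycle cells, Hspd1 kept its call in 13 of 15 alternatives (0.470 to 0.675), Hspa4 in 11 (0.518 to 0.702) and Hspb11 in 8 (1.29 to 2.02).

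Summed ratios moved as follows. HIF-high against all others was 0.873 with at least 1000 genes per cell, 0.879 at the lower class limit and 0.820 without HIF-high cells that were not low-cycle, an alternative chosen after seeing the data, as was leaving out HIF-high cells that were also ISR-high or high in immediate early genes (other stress cells). Against low-cycle cells it was 0.921 with 1000 genes, 0.862 with each cell weighted equally and 0.864 without HIF-high cells that were not low-cycle. ISR-high was 1.09 at 1000 UMIs per cell, immediate early 0.949 at the lower limit, S-high 1.12 at the higher and 1.07 at the lower limit, and G2M-high 1.06 with equal weights and 1.05 at the higher limit. The total level was 14581 CPM at a mitochondrial limit of 5% and 14223 with equal weights.

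Counts of called members moved more. In HIF-high against all other cells, lower members numbered 5 at the lower class limit and 2 (Hspd1 and Hspa4) when the whole interval had to pass 1.5-fold; higher members numbered 4 at the 5% limit, 4 at 1000 UMIs, 1 under the whole-interval rule, 4 without other stress cells and 5 without HIF-high cells that were not low-cycle. Against low-cycle cells, lower members numbered 4 with 1000 genes, 2 at the lower class limit and 0 under the whole-interval rule, and higher members 3 with equal weights and 1 under that rule. ISR-high cells had 2 higher members with 1000 genes, equal weights, the higher class limit or without barcodes ending in an unread base, and 0 or 1 lower members under 8 alternatives (1 at mitochondrial limits of 5% or none, with equal weights and at both class limits; 0 at 1000 UMIs, under the whole-interval rule and without those barcodes). Immediate early cells had 0 higher at 1000 UMIs, the lower limit and the whole-interval rule, and 2 lower with 1000 genes, the higher limit or without those barcodes, against 0 at the lower limit and the whole-interval rule. S-high cells had 10 higher at the higher limit and 2 under the whole-interval rule, and 3 lower at the 5% limit, 2 at 1000 UMIs, 1 at the higher limit and 0 under the whole-interval rule. G2M-high cells had 2 higher under the whole-interval rule, and 2 lower with at least 200 UMIs per gene, 0 at 1000 UMIs, 2 at the higher limit and 0 under the whole-interval rule. For thinning and stricter rules fewer molecules or genes could pass by construction; otherwise the cause was not tested.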
